A study of Oryza sativa with 12 samples.

Results

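The peduncle is the topmost internode of the rice stem, and it carries the panicle. The comparison was between *Oryza sativa* peduncles of the cultivars Swarna and Pokkali after heading, when the peduncle no longer elongates (Swarna NP and Pokkali NP). It covered 6 of the 12 RNA-seq libraries of the series, with 3 libraries in each of these groups. The other 6 libraries were from elongating peduncles before heading (Swarna EP and Pokkali EP). Plants of both cultivars were raised in an open field, the tissue was the first internode, and the labels name no treatment. The study reports a longer time from sowing to heading in Pokkali than in Swarna. NP samples were taken a few days after heading, so plant age and cultivar cannot be told apart. Genes were taken from rows that name a single locus. Where a locus had several rows the row of highest mean was used, and an FPKM (fragments scaled by transcript length and library depth) of at least 1 was required in at least 1 of the 4 groups. Of 53380 loci with such a row, 19126 were compared.

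Each gene has a single deposited FPKM for a group, made from all 3 of its libraries together. The differences therefore have no replicate check, and no error, interval or test is given. The table does not give the reads behind each value, and the read totals that the study tabulates for each library are not used here. A gene was counted as different where the values differed at least 2-fold on the log2(FPKM + 0.5) scale, which understates the change of low genes. Every log2 ratio below is Swarna over Pokkali, so that a positive value means a higher level in Swarna. FPKM is scaled to library depth and is not an absolute amount, and the peduncle holds several tissues. Fewer cells of a type and less RNA per cell therefore cannot be told apart.

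Until heading the peduncle grows by cell division and elongation at its base, driven by gibberellins, auxin and brassinosteroids. Once the panicle has emerged it serves as a stem and as a route for sugars, which arrive as sucrose in the phloem, can be stored as starch or soluble sugars, and are later moved to the filling grains. Jasmonic acid (JA) and abscisic acid (ABA) are hormones of stress, maturation and senescence in plant tissues.

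In Swarna NP, 3907 genes were at least 2-fold higher than in Pokkali NP, and 3877 genes were at least 2-fold lower. These are 20.4% and 20.3% of the genes compared, together 7784 genes or 40.7%. They are the background for every list below, though they are not matched to the level of the listed genes. The median log2 ratio over all genes was 0.02, and the middle 90% of genes lay between −2.32 and 2.26. A difference of at least 4-fold was found for 1282 genes that were higher in Swarna NP and for 1404 that were higher in Pokkali NP. At a minimum of 8-fold these numbers were 453 and 475. Over the genes compared, FPKM summed to 608162 in Swarna NP, against 501677 in Pokkali NP, and the 10 highest genes held 16.9% of the sum in Swarna NP and 13.05% in Pokkali NP. When each column was divided by its sum, the median log2 ratio moved to −0.18, and 2922 genes were higher in Swarna NP against 4718 in Pokkali NP, so the even split of the calls depends on the scaling.

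**Figure D1:**
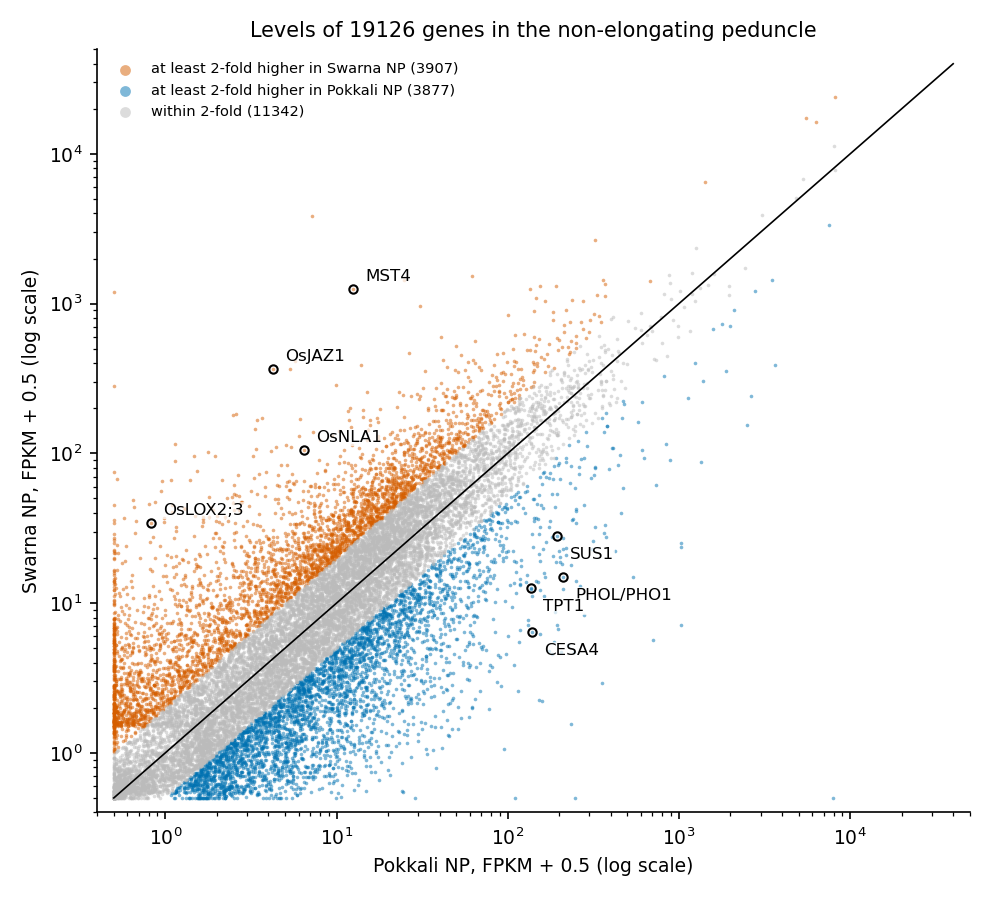
FPKM plus 0.5 of each of the 19126 genes in Swarna NP (vertical axis) against Pokkali NP (horizontal axis), both on log scales, with the line of equal levels. Orange points (3907 genes) are at least 2-fold higher in Swarna NP, blue points (3877 genes) at least 2-fold higher in Pokkali NP, grey points (11342 genes) are within 2-fold, and circles mark 8 genes described in the text.

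The direction of the difference varied with the level. Among the 1245 genes with at least 100 FPKM in the higher NP group, 37.0% were at least 2-fold higher in Swarna NP and 15.6% in Pokkali NP, with a median log2 ratio of 0.55. Among the 5888 genes at 5 to 20 FPKM, these shares were 17.8% and 24.8%, with a median of −0.10. Among the 4768 genes at 20 to 100 FPKM, the shares were 27.6% and 17.2%. Genes of high level lay more often on the Swarna side than genes of low level. For a list of high level, the shares over all genes are therefore too low a background on the Swarna side.

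The 5 highest loci of Swarna NP, for which the files give no gene name, were led by LOC_Os01g74300, at 23889 FPKM in Swarna NP and 8159 FPKM in Pokkali NP, and LOC_Os01g45470, at 17414 and 5504 FPKM. LOC_Os05g02070 had 16376 FPKM in Swarna NP and 6355 FPKM in Pokkali NP. LOC_Os01g10400 had 11368 and 8096 FPKM. LOC_Os03g60820 had 7837 FPKM in Swarna NP and 8134 FPKM in Pokkali NP, but its assembled span holds 43 loci and its value is uncertain. LOC_Os11g06720, among the 5 highest of Pokkali NP, had 3353 FPKM in Swarna NP and 7483 FPKM in Pokkali NP.

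The gene groups that follow come from the study's own tables of genes that differ between NP and EP in these samples, so their counts are not independent evidence of a direction. They name 1035 loci, of which 996 were compared, 326 were at least 2-fold higher in Swarna NP and 179 were lower. The transcription factors among them are annotated by family alone.

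Jasmonate genes were mostly higher in Swarna NP. JA is made from linolenic acid by lipoxygenases (LOX), allene oxide synthase (AOS), allene oxide cyclase (AOC), OPR reductase and peroxisomal β-oxidation, and the JAZ proteins are repressors that are degraded when the hormone is perceived. JAZ genes are themselves induced by JA in many plants. All 8 JAZ genes listed were at least 2-fold higher in Swarna NP, with a median log2 ratio of 2.30. This held also with the columns divided by their sums, where the median was 2.02.

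*OsJAZ1* (LOC_Os03g08320, Chr3:4236724-4238274, positions from version 7 of the Rice Genome Annotation Project) had 363 FPKM in Swarna NP and 3.76 FPKM in Pokkali NP, a log2 ratio of 6.42. *OsJAZ9* had 50.5 and 1.296 FPKM. *OsJAZ6*, *OsJAZ7* and *OsJAZ2* had log2 ratios of 2.73, 2.40 and 2.19. In absolute level *OsJAZ2* was the highest of the 8 in Swarna NP, at 494 FPKM against 108 FPKM in Pokkali NP. *OsJAZ3* had the smallest difference, with 405 FPKM in Swarna NP and 140 FPKM in Pokkali NP. *OsJAZ1*, *OsJAZ5* and *OsJAZ6* are neighbours on chromosome 3, and reads shared by such copies could have been split between them.

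Among the JA biosynthesis genes, 15 of 17 listed were compared, 7 were higher in Swarna NP and 1 was lower. The largest differences were at the first step. *OsLOX2;3* (LOC_Os08g39850, Chr8:25240906-25250279) had 33.6 FPKM in Swarna NP and 0.32 FPKM in Pokkali NP, and the adjacent *OsLOX2;1* (Chr8:25216363-25224080) had 11.02 and 0.098 FPKM. *OsDAD1;3*, related to a lipase that releases the fatty acid in Arabidopsis, had 50.5 FPKM in Swarna NP against 4.66 FPKM in Pokkali NP. Later steps differed less. *OsAOS2* had 31.6 and 10.04 FPKM, *OsOPR7* 160 and 53.8 FPKM, and the acyl-CoA oxidase gene *OsACX* 264 and 69.8 FPKM in Swarna NP and Pokkali NP. *OsAOC*, at 101 FPKM in Swarna NP and 73.0 FPKM in Pokkali NP, was within 2-fold. *OsJAR1;3*, of the family that joins JA to isoleucine, was the exception, with 0.91 FPKM in Swarna NP and 3.75 FPKM in Pokkali NP.

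The ABA genes were mostly on the same side. NCED enzymes cleave carotenoids in the step that limits ABA synthesis. LOC_Os12g42280, named *OsNCED2* in the study's hormone table, had 28.9 FPKM in Swarna NP and 1.47 FPKM in Pokkali NP. LOC_Os03g44380, which the study's tables name *OsNCED1* or *OsNCED3*, had 306 and 85.7 FPKM. *OsABA2*, of a later step, was lower in Swarna NP, at 3.86 FPKM against 13.8 FPKM in Pokkali NP. The 3 genes of ABA 8′-hydroxylases, which inactivate ABA, all had negative log2 ratios, and *OsABA8OX3* passed 2-fold with 2.03 FPKM in Swarna NP and 5.92 FPKM in Pokkali NP. With the columns divided by their sums, all 3 did.

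Of the 18 ABA signaling genes, 12 were at least 2-fold higher in Swarna NP and 1 was lower, with a median log2 ratio of 1.33. Of the 5 PP2C phosphatase genes listed, a class that includes repressors of ABA signaling, 4 were higher in Swarna NP. *OsPP2C1* had 242 FPKM in Swarna NP and 42.9 FPKM in Pokkali NP, and *OsPP2C9* had 182 and 44.2 FPKM. Of the 8 phospholipase D genes, 6 were higher in Swarna NP. *OsPLDα12* had 27.97 and 8.83 FPKM, and *OsPLDα3* had 8.66 and 2.44 FPKM. The transcription factor gene *OsbZIP10* had 4.28 FPKM in Swarna NP and 0.025 FPKM in Pokkali NP. *OsbZIP9* was the exception, with 7.18 and 32.5 FPKM.

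**Figure D2:**
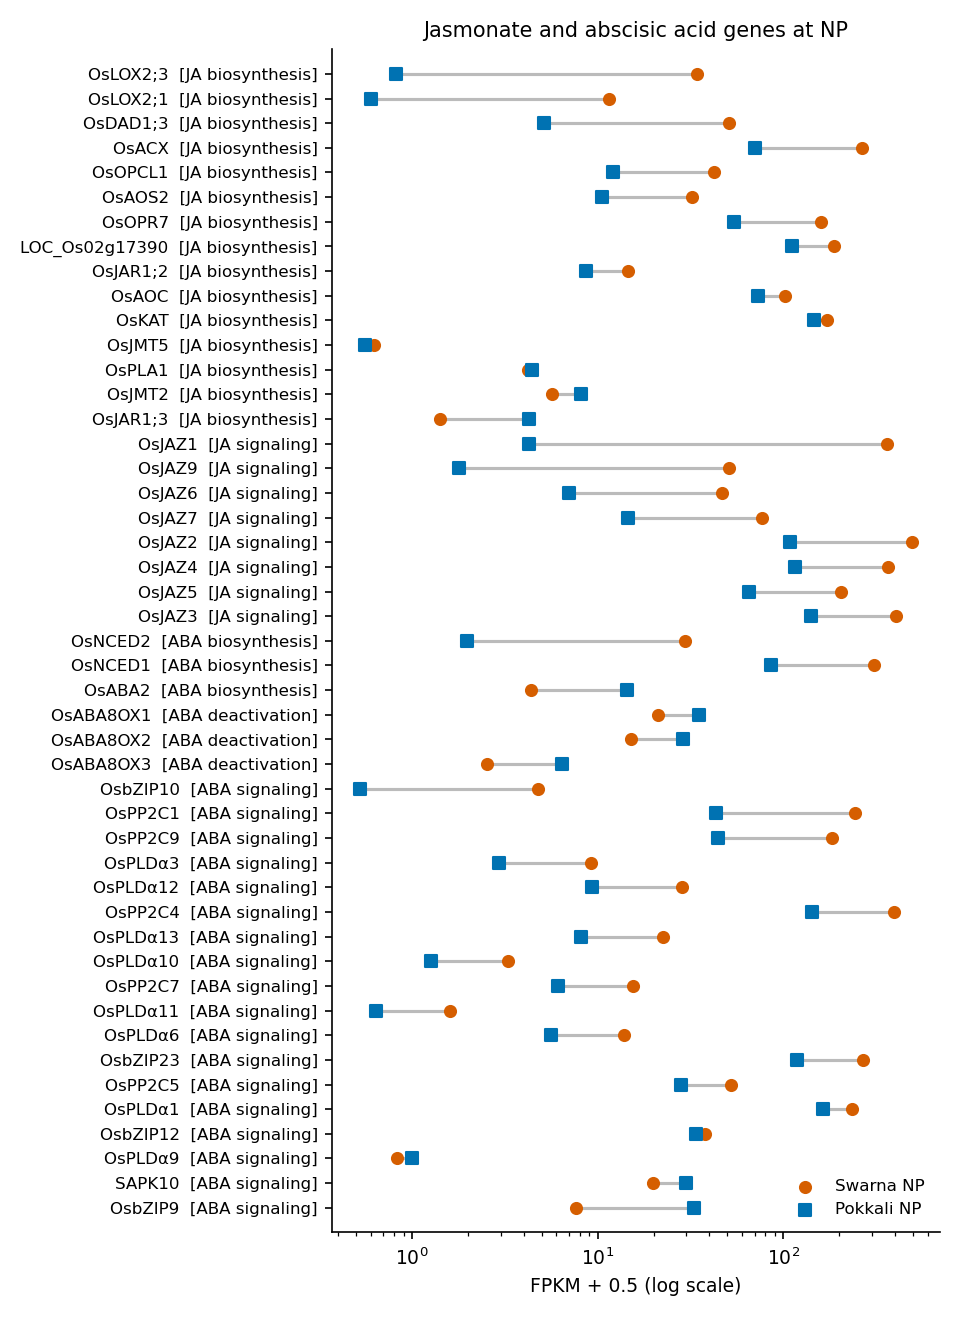
FPKM plus 0.5 (log scale) of the JA and ABA genes of the study's hormone table in Swarna NP (orange circles) and Pokkali NP (blue squares), sorted by group and by log2 ratio. In the JA signaling group all 8 orange circles lie to the right of the blue squares, and in the ABA signaling group 12 of 18 do so by at least 2-fold.

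The growth hormones gave a mixed picture. Aux/IAA proteins repress auxin responses, and ARF proteins are the transcription factors they bind. Of 17 Aux/IAA genes listed, 2 were at least 2-fold higher in Swarna NP and 7 were lower. *OsIAA10* had 3.90 FPKM in Swarna NP and 19.9 FPKM in Pokkali NP, and *OsIAA20* had 2.24 and 11.4 FPKM. *OsIAA4*, *OsIAA9* and *OsIAA12* had log2 ratios of −1.75, −1.71 and −1.50. In the opposite direction, *OsIAA14* had 25.1 FPKM in Swarna NP and 2.61 FPKM in Pokkali NP, and *OsIAA6* had 16.6 and 2.84 FPKM. Of 11 ARF genes, 3 were higher in Swarna NP (27.3%, against 20.4% of all genes) and 1 was lower. *OsARF19* had 87.5 and 10.5 FPKM, *OsARF1* 58.7 and 7.38 FPKM, and *OsARF6* 79.0 and 17.5 FPKM. The auxin receptor gene *OsTIR1;1* had 74.5 FPKM in Swarna NP and 21.7 FPKM in Pokkali NP. For auxin synthesis, *OsTAA1;2*, of the first step from tryptophan, had 0.40 FPKM in Swarna NP and 3.12 FPKM in Pokkali NP, and *OsASA1*, an anthranilate synthase gene of the tryptophan pathway, had 1.07 and 6.43 FPKM.

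Genes of gibberellin (GA) synthesis and inactivation differed in both directions. Of the GA 20-oxidases, which make GA precursors, *GA20ox1* had 3.06 FPKM in Swarna NP and 15.2 FPKM in Pokkali NP, while *GA20ox4* had 10.8 and 2.28 FPKM. Of the GA 2-oxidases, which inactivate GA, *GA2ox3* had 18.5 FPKM in Swarna NP and 94.0 FPKM in Pokkali NP, *GA2ox6* had 9.74 and 0.83 FPKM, and *GA2ox4* had 9.84 and 9.43 FPKM. *EUIL1*, related to the EUI enzyme that inactivates GA, had 7.40 FPKM in Swarna NP and 27.2 FPKM in Pokkali NP. The GA receptor gene *GID1* had 54.3 and 34.5 FPKM, and *SLR1*, which encodes the DELLA repressor of GA responses, had 35.4 and 20.2 FPKM, both within 2-fold. Of the 4 GA signaling genes compared, the one past 2-fold was *OsGAMYB*, a transcription factor gene of the GA response, at 11.5 FPKM in Swarna NP and 4.33 FPKM in Pokkali NP. *GA3ox2* stayed under 1 FPKM in every group and was not compared.

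For brassinosteroids (BR), 2 of 7 biosynthesis genes (28.6%, against 20.3% of all genes) were at least 2-fold lower in Swarna NP and none was higher. *OsDIM*, a sterol reductase gene of the pathway, had 7.40 FPKM in Swarna NP and 54.1 FPKM in Pokkali NP. The sterol methyltransferase gene *OsSMT1* had 13.2 and 30.8 FPKM. The receptor gene *OsBRI1* was within 2-fold, at 10.1 FPKM in Swarna NP and 8.44 FPKM in Pokkali NP, and its relative *OsBRL3* had 22.8 and 7.73 FPKM. Among the cytokinin genes, the type-A response regulators *OsRR10* and *OsRR9* had 9.72 and 10.8 FPKM in Swarna NP, against 62.1 and 44.3 FPKM in Pokkali NP. They are close copies on chromosomes 12 and 11, so their values are not independent. The response regulators *OsRR19* and *OsRR13* and the receptor gene *OsHK3* had log2 ratios of 1.83, 1.76 and 1.40. Of 8 ethylene biosynthesis genes, 3 were at least 2-fold higher in Swarna NP and none was lower. *OsACO5*, of the last step of synthesis, had 7.68 FPKM in Swarna NP and 0.93 FPKM in Pokkali NP, and *OsACS1*, of the step before it, had 8.40 and 3.08 FPKM. Of 3 ethylene signaling genes, the receptor gene *OsETR1;2* was higher in Swarna NP, at 32.1 FPKM against 13.9 FPKM in Pokkali NP, and *OsEIN2;2* was lower, at 4.88 against 14.01 FPKM. The call of *OsETR1;2* was lost with the columns divided by their sums.

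**Figure D3:**
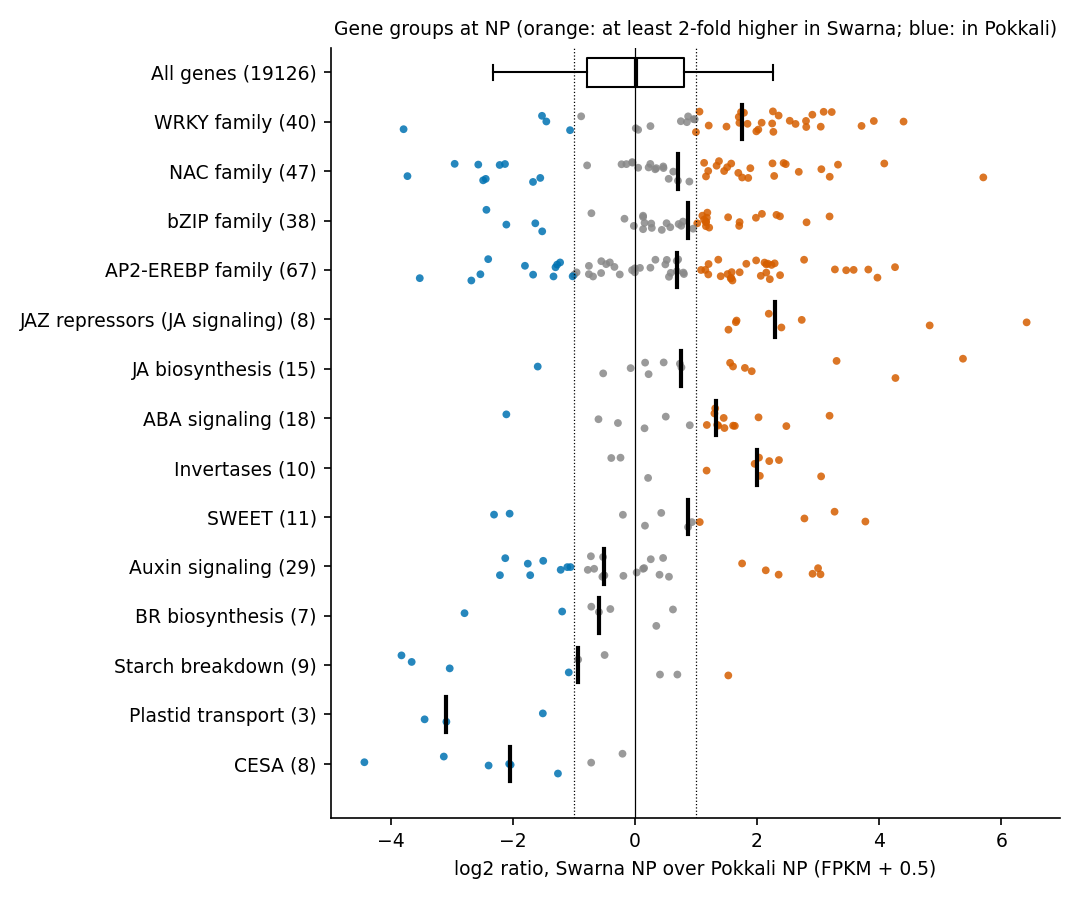
Log2 ratio of Swarna NP over Pokkali NP on FPKM plus 0.5 for each gene of 14 groups (points, number of genes in brackets), with the median of the group (black bar) and dotted lines at 2-fold. The box for all 19126 genes gives the quartiles, with whiskers at the 5th and 95th percentiles, and the group medians lie between 2.30 (JAZ repressors) on the Swarna side and −3.09 (plastid transport) on the Pokkali side.

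Sucrose is split either by sucrose synthase, which yields UDP-glucose for wall and starch synthesis, or by invertases, which yield hexoses. *SUS1* (LOC_Os03g28330, Chr3:16301277-16307632) had 27.4 FPKM in Swarna NP and 194 FPKM in Pokkali NP, a log2 ratio of −2.80. *SUS4* was within 2-fold, at 143 and 177 FPKM, but its assembled span holds 4 loci. Of 10 invertase genes listed, 7 were at least 2-fold higher in Swarna NP and none was lower, and the median log2 ratio was 1.998. With the columns divided by their sums 6 were higher. These 7 covered all 3 kinds of invertase. *NIN7*, a neutral invertase gene, had 7.47 FPKM in Swarna NP and 0.46 FPKM in Pokkali NP, and the neutral invertase genes *NIN2* and *NIN1* had log2 ratios of 2.05 and 2.03. The cell wall invertase gene *CIN1* had 119 and 25.4 FPKM. The vacuolar invertase gene *INV3/VIN2* had 79.7 FPKM in Swarna NP and 15.1 FPKM in Pokkali NP.

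The 2 largest log2 ratios among the carbohydrate genes were those of the hexose transporter genes *MST4* and *MST3*. *MST4* (LOC_Os03g11900), a gene of a plasma membrane monosaccharide transporter, had 1245 FPKM in Swarna NP and 11.97 FPKM in Pokkali NP, a log2 ratio of 6.64. *MST3* had 107 and 2.87 FPKM, and *MST6* had 286 and 122 FPKM. The call of *MST6* was lost with the columns divided by their sums. The assembled spans of *MST4* (Chr3:6227228-6238297) and *MST3* (Chr7:343926-353686) each hold 2 named loci, so part of their reads may belong to a neighbour. *TMT1*, of the family that loads monosaccharides into the vacuole, differed in the other direction, with 13.6 FPKM in Swarna NP and 57.7 FPKM in Pokkali NP.

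SWEET proteins release sugars from cells, and SUT proteins take up sucrose. Of 11 SWEET genes, 4 were at least 2-fold higher in Swarna NP and 2 were lower. With the columns divided by their sums 3 were higher, and *SWEET2b* was not past 2-fold. *SWEET13*, *SWEET14* and *SWEET15* belong to the clade that transports sucrose. *SWEET13* had 349 FPKM in Swarna NP and 50.5 FPKM in Pokkali NP. *SWEET14* had 61.3 and 4.01 FPKM, and *SWEET15* had 84.5 and 8.31 FPKM. *SWEET1a*, at 10.2 and 52.4 FPKM, and *SWEET3b*, at 7.71 and 33.5 FPKM, were lower in Swarna NP. The sucrose transporter gene *SUT4* had 41.8 FPKM in Swarna NP and 15.4 FPKM in Pokkali NP. *SUT1* had 125 and 62.0 FPKM, at the 2-fold limit, and did not pass it with the columns divided by their sums.

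Of 9 starch breakdown genes, 4 were at least 2-fold lower in Swarna NP and 1 was higher. With the columns scaled by the median of their ratios 3 were lower, and *GWD1* was not past 2-fold. *PHOL/PHO1* (LOC_Os03g55090, Chr3:31332058-31339249), which encodes the plastidic starch phosphorylase, had 14.4 FPKM in Swarna NP and 210 FPKM in Pokkali NP. The cytosolic phosphorylase gene *PHOH/PHO2* had 11.7 and 154 FPKM. *DPEI*, of the disproportionating enzyme that rearranges glucan chains, had 14.02 FPKM in Swarna NP and 118 FPKM in Pokkali NP, and *GWD1*, which phosphorylates starch before its breakdown, had 60.4 and 128 FPKM. The β-amylase genes, which release maltose, did not share this. *BAM3* had 576 FPKM in Swarna NP and 199 FPKM in Pokkali NP, and the other 3 were within 2-fold. The 3 plastid transport genes were all lower in Swarna NP. *TPT1* and *TPT2*, of the triose phosphate translocators of the plastid envelope, had 12.04 and 0.16 FPKM in Swarna NP against 136 and 5.09 FPKM in Pokkali NP, and *ADPGT2/BT1-2* had 0.61 FPKM against 2.66 FPKM. The span of *TPT1* holds 2 loci.

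**Figure D4:**
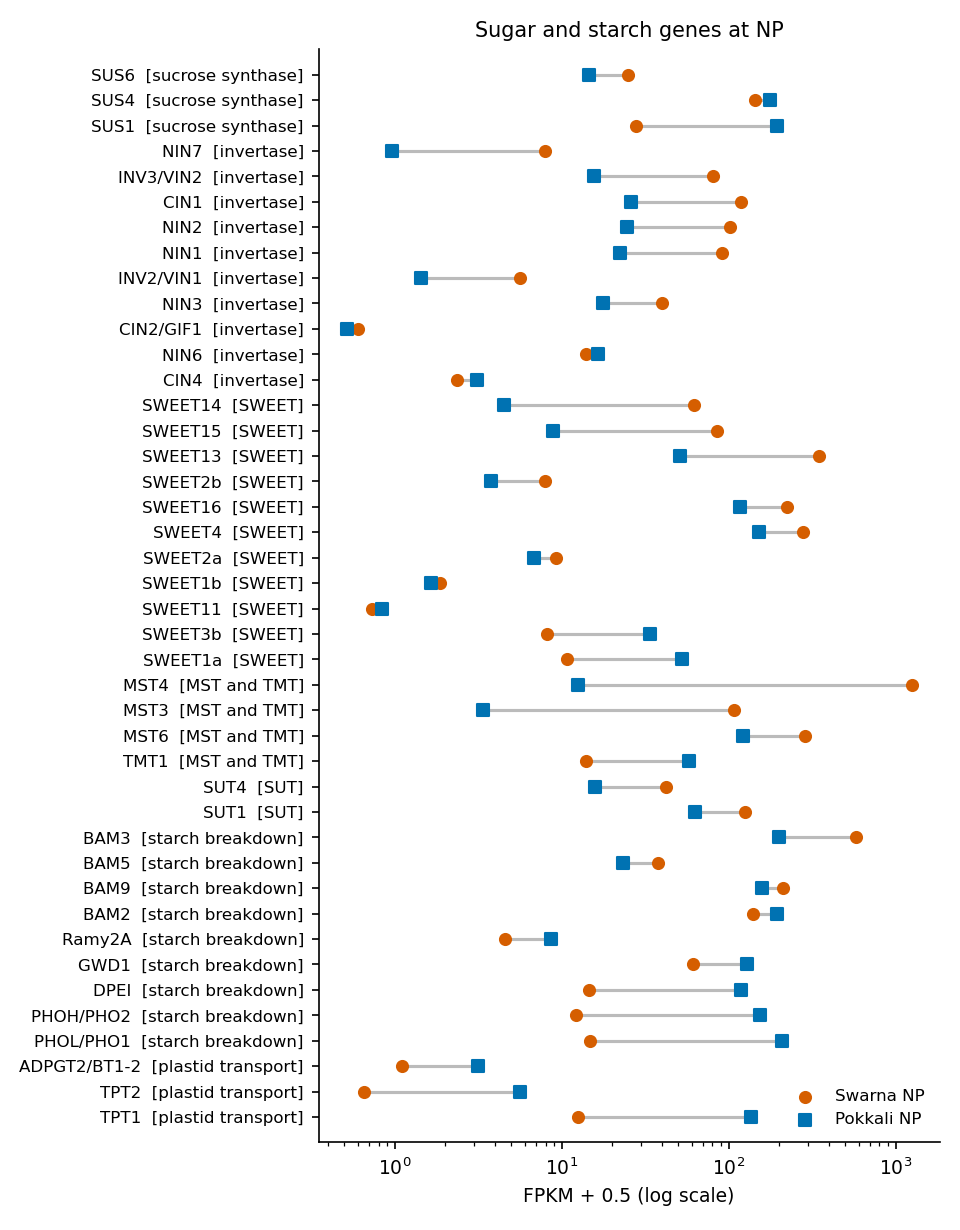
FPKM plus 0.5 (log scale) of the 42 carbohydrate genes in Swarna NP (orange circles) and Pokkali NP (blue squares), grouped by step and sorted by log2 ratio within a group. The circles lie right of the squares for most invertases and for *MST4*, *MST3*, *SWEET13*, *SWEET14* and *SWEET15*, and left of them for *SUS1*, *TMT1*, *PHOL/PHO1*, *PHOH/PHO2*, *DPEI*, *TPT1* and *TPT2*.

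Over the whole carbohydrate list 17 of 42 genes were at least 2-fold higher in Swarna NP and 11 were lower. Genes in both directions were found among the SWEET, the hexose transporter and the starch breakdown genes.

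Cellulose is made by complexes of CESA proteins, of which CESA4 and CESA7 are known for the secondary walls of vessels and fibers and CESA1, CESA3 and CESA8 for primary walls. Of 24 CESA and cellulose synthase-like (CSL) genes listed, 1 was at least 2-fold higher in Swarna NP and 14 were lower, a median log2 ratio of −1.12. All 8 CESA genes had a negative ratio and 6 passed 2-fold. *CESA4* (LOC_Os01g54620, Chr1:31422946-31428688) had 5.94 FPKM in Swarna NP and 138 FPKM in Pokkali NP, a log2 ratio of −4.43. *CESA7* had 5.25 and 49.8 FPKM. *CESA3* had 28.4 FPKM in Swarna NP and 152 FPKM in Pokkali NP, *CESA6* had 16.1 and 67.4 FPKM, and *CESA2* had 3.53 and 16.3 FPKM. *CESA1* and *CESA5* were within 2-fold, with log2 ratios of −0.72 and −0.20.

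Among the CSL genes, *CSLF6*, of mixed-linkage glucan synthesis, had 21.8 FPKM in Swarna NP and 44.5 FPKM in Pokkali NP, close to the 2-fold limit. *CSLH1* had 16.0 and 56.8 FPKM, and *CSLE6* had 0.34 and 2.72 FPKM. *CSLA11*, of a family of mannan synthases, had 0.49 FPKM in Swarna NP and 6.81 FPKM in Pokkali NP. The exception was *CSLA2*, with a log2 ratio of 1.04, which was not past 2-fold when the columns were divided by their sums.

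Of 11 lignin genes, 3 were higher in Swarna NP and 3 were lower (27.3% each, against 20.4% and 20.3% of all genes). The sign of their median log2 ratio (0.19) changed with the scaling, to −0.09 with the columns divided by their sums. The genes of highest level were on the Pokkali side. LOC_Os02g41630, of phenylalanine ammonia-lyase (PAL), the entry enzyme of the phenylpropanoid pathway, had 97.7 FPKM in Swarna NP and 451 FPKM in Pokkali NP. A further PAL gene, LOC_Os04g43760, had 8.49 and 46.9 FPKM. The PAL gene *OsPAL2* (LOC_Os04g43800) differed in the other direction, with 3.38 FPKM in Swarna NP and 0.84 FPKM in Pokkali NP. *OsCOMT*, of an O-methyltransferase of lignin monomer synthesis, had 104 FPKM in Swarna NP and 606 FPKM in Pokkali NP. The 4CL gene LOC_Os01g67530, of the ligase that activates hydroxycinnamic acids, was higher in Swarna NP at 17.8 against 2.78 FPKM. LOC_Os03g04000, listed as 4CL and as *OsOPCL1* of JA synthesis, had 41.8 and 11.6 FPKM.

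Of 815 transcription factor loci listed, 780 were compared, of which 266 were at least 2-fold higher in Swarna NP and 129 were lower. The median log2 ratio was 0.47. With the columns divided by their sums these counts were 208 and 153. The families differed in their counts. WRKY factors, known for defense and senescence responses, had 27 of 40 genes higher in Swarna NP and 4 lower, and a median of 1.76. The Tify family, whose 10 genes include the 8 JAZ genes, had 10 higher. NAC factors had 22 of 47 higher and 9 lower, AP2-EREBP factors 30 of 67 and 11, bZIP factors 18 of 38 and 4, and MYB factors 19 of 45 and 8. The bZIP count depends on the scaling, with 9 higher in Swarna NP when the columns were divided by their sums and 12 with quantile normalization. In the bHLH family, 12 of 49 (24.5%, near the 20.4% of all genes) were higher and 3 lower, and the other 34 were within 2-fold. In the GRAS family, 6 of 20 were higher and none was lower. In the AUX/IAA family, most of whose genes are described above, 2 of 18 were higher in Swarna NP and 7 were lower. Of 5 FHA and 6 SET genes, 4 each were lower in Swarna NP and none was higher.

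Single loci in these families differed widely. The WRKY locus LOC_Os01g09100 had 52.9 FPKM in Swarna NP and 2.03 FPKM in Pokkali NP, and LOC_Os01g61080 had 28.8 and 1.45 FPKM. LOC_Os08g09900 was a WRKY locus with the reverse, at 0.073 and 7.41 FPKM. Among NAC loci, LOC_Os07g48450 had 34.9 FPKM in Swarna NP and 0.18 FPKM in Pokkali NP, LOC_Os05g10620 had 46.2 and 2.25 FPKM, and LOC_Os05g48850 had 0.68 and 15.1 FPKM. Of the AP2-EREBP loci, LOC_Os11g06770 had 139 FPKM in Swarna NP and 6.76 FPKM in Pokkali NP, and LOC_Os04g48350 had 0.40 and 9.87 FPKM. The MYB locus LOC_Os12g37690 had 34.3 and 0.48 FPKM, and the GRAS locus LOC_Os04g35250 had 18.6 and 0.083 FPKM. The MYB-related locus LOC_Os01g47370 had 12.99 FPKM in Swarna NP and was listed at 0 in the other 3 groups.

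The study also listed genes with a role in anthers or pollen, picked for a difference between peduncle stages. Of the 26 listed for NP, 8 were at least 2-fold higher in Swarna NP and none was lower, and with the columns divided by their sums 4 were higher and 1 was lower. Their median level was 67.7 FPKM in Swarna NP and 41.0 FPKM in Pokkali NP. The 8 are 30.8% of the list, near the 27.6% of all genes at 20 to 100 FPKM in the higher NP group. *OsHAK1*, of a high-affinity potassium transporter, had 20.5 FPKM in Swarna NP and 0.52 FPKM in Pokkali NP. *OsNLA1*, of a ubiquitin ligase that acts on phosphate transporters, had 104 and 5.96 FPKM, and *OsAAE3* had 208 and 47.3 FPKM. Of the 50 listed for EP, 49 were compared, of which 7 (14.3%) were higher in Swarna NP and 10 (20.4%) were lower, against 20.4% and 20.3% of all genes. In this EP list, 20 genes were under 1 FPKM in both NP groups, where the added constant holds the ratios down. Here *EDT1*, known for tapetum degradation, had 2.104 FPKM in Swarna NP and 19.4 FPKM in Pokkali NP, and the aquaporin gene *OsPIP2;6* had 10.5 and 47.8 FPKM. *OsFOR1/PGIP* had 26.2 and 9.52 FPKM. The summed FPKM of the EP list was 186 in Swarna NP, against 304 in Pokkali NP, and that of the NP list was 3726 and 2465.

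The same ratio before heading was taken from Swarna EP and Pokkali EP, which share no libraries with the NP groups. There 1433 genes (7.49%) were at least 2-fold higher in Swarna EP and 1898 (9.92%) in Pokkali EP. The genes higher in Swarna EP were 43.0% of those past 2-fold, and 68.8% with the columns divided by their sums, so the scaling turns the balance of this split round. Of the 3907 genes higher in Swarna NP, 744 (19.0%) were higher in Swarna EP too, 144 (3.69%) were higher in Pokkali EP and 3019 (77.3%) were within 2-fold before heading. Of the 3877 genes higher in Pokkali NP, 954 (24.6%) were higher in Pokkali EP, 67 (1.73%) were higher in Swarna EP and 2856 (73.7%) were within 2-fold. Read the other way, 51.9% of the genes higher in Swarna EP and 50.3% of those higher in Pokkali EP kept their side at NP. Across genes, which are not independent, the log2 ratios of the stages had a Pearson r of 0.43 and a Spearman rho of 0.35 (n = 19126). The overlap counts move with the constant added to FPKM, by more than 1.5 times for the 744, the 144 and the 67 genes.

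Gene groups differed in how much of the NP difference was present before heading, at the main scaling. Over the genes compared, FPKM summed to 328939 in Swarna EP and 417857 in Pokkali EP. Dividing the columns by their sums therefore raises the EP ratios. The EP counts and medians of the groups were not repeated with other scalings, and medians near 0 could change sign. Of the 8 JAZ genes, 6 were already at least 2-fold higher in Swarna EP, with a median log2 ratio of 1.51. *OsJAZ1* had 6.80 FPKM in Swarna EP and 0.25 FPKM in Pokkali EP. *OsJAZ5* had 23.0 and 2.05 FPKM, a log2 ratio of 3.20 at EP against 1.65 at NP. *CESA4*, at 54.9 and 264 FPKM, *SUS1*, at 535 and 1332 FPKM, and *TPT1*, at 43.1 and 108 FPKM, were likewise lower in Swarna EP. *EDT1* had 5.73 FPKM in Swarna EP and 85.8 FPKM in Pokkali EP. Of the AP2-EREBP factors, 26 of 67 were at least 2-fold higher in Swarna EP and 3 were lower. Their median log2 ratio was 0.74 at EP and 0.69 at NP. Of the WRKY factors, 11 of 40 were higher in Swarna EP and 1 was lower. These counts were 1 and 2 for the 38 bZIP factors, 4 and 5 for the 47 NAC factors, and 5 and 8 for the 45 MYB factors. For ABA signaling genes the EP median was −0.20, and 1 of 18 was higher in Swarna EP. For invertases it was −0.02, with 1 of 10 higher. *SWEET15* had 77.9 FPKM in Swarna EP and 90.9 FPKM in Pokkali EP, and *OsLOX2;3* had 0.071 and 0.030 FPKM. *MST4* was low before heading but already higher in Swarna, at 3.81 FPKM in Swarna EP and 0.40 FPKM in Pokkali EP, a log2 ratio of 2.25. *MST6* had 78.8 FPKM in Swarna EP and 20.2 FPKM in Pokkali EP, a log2 ratio of 1.94 against 1.22 at NP. Of the 4 MST and TMT genes, these 2 were past 2-fold at EP.

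Of the 996 list genes compared, 17 differed at least 2-fold in opposite directions at the stages, beside 144 and 67 of all 19126 genes. With the columns divided by their sums, the 144 became 55 and the 67 became 191. The EP log2 ratios of *INV3/VIN2* (−1.04) and *OsNLA1* (−1.02) lay at the 2-fold limit. *INV3/VIN2* had 24.9 FPKM in Swarna EP and 51.7 FPKM in Pokkali EP, the reverse of its order at NP. *OsNLA1* had 0.70 and 1.93 FPKM at EP, and the bZIP locus LOC_Os02g09830 had 0.74 FPKM in Swarna EP and 5.33 FPKM in Pokkali EP, but 58.8 FPKM in Swarna NP and 7.94 FPKM in Pokkali NP. *OsIAA20* and *OsIAA9*, lower in Swarna NP, had 13.4 and 16.4 FPKM in Swarna EP against 5.96 and 7.57 FPKM in Pokkali EP.

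**Figure D5:**
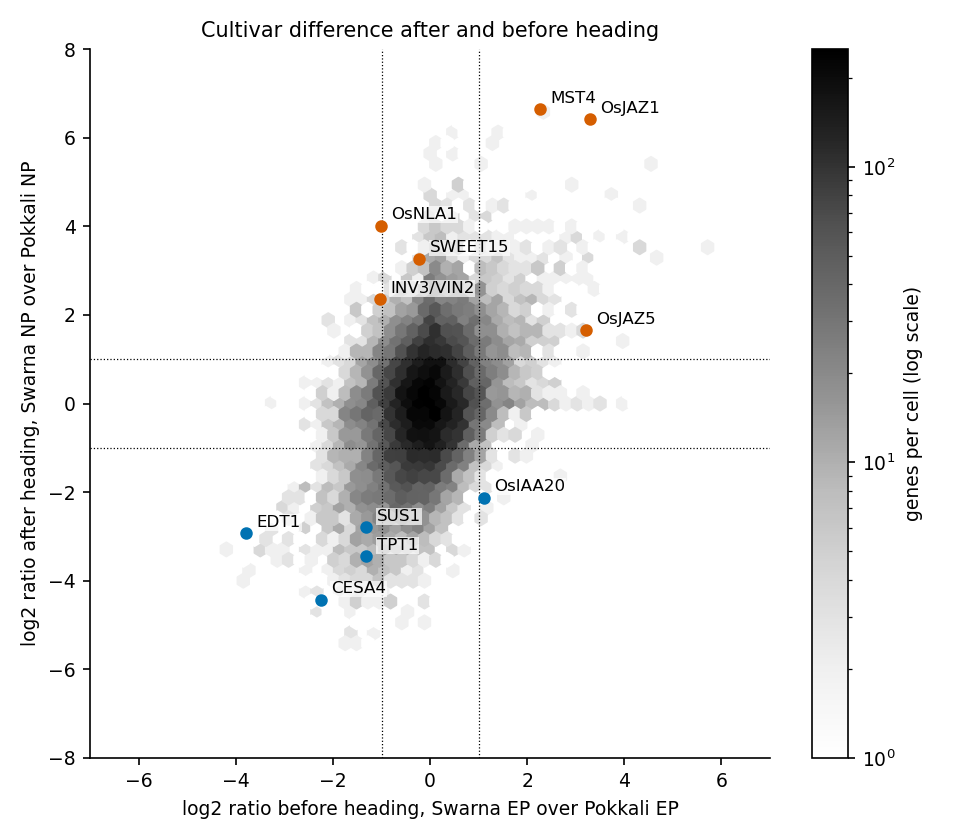
Log2 ratio of Swarna over Pokkali after heading (NP, vertical axis) against the same ratio before heading (EP, horizontal axis), with cells shaded by the number of genes on a log scale and dotted lines at 2-fold, 7 genes lying outside the axes. Orange and blue points mark named genes that are higher in Swarna NP or in Pokkali NP, with *OsJAZ1* and *MST4* at the top right, *CESA4* and *EDT1* at the lower left, and *INV3/VIN2* and *OsNLA1* at the upper left.

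Some genes were listed at 0 in a group, which can also be a failed estimate, so no fold is given for them. Among the genes compared, 144 were listed at 0 in Swarna NP, and 403 genes were listed at 0 in Pokkali NP. Of these 403, 230 had at least 1 FPKM in Swarna NP and 27 had at least 10 FPKM, and 23 of these 27 were also at 0 in Pokkali EP. The reverse was found for 45, 4 and 2 genes. LOC_Os06g38210 (Chr6:22613771-22617448) had 1201 FPKM in Swarna NP and 60.2 FPKM in Swarna EP, and it was listed at 0 in Pokkali NP and Pokkali EP. LOC_Os06g02930 had 279 FPKM in Swarna NP and was listed at 0 in Pokkali NP. LOC_Os04g27430 was listed at 0 in Swarna NP and had 246 FPKM in Pokkali NP.

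The largest single difference carries a doubt of its own. LOC_Os10g39860 was listed at 0 in Swarna NP and had 7939 FPKM in Pokkali NP, but it had 4238 FPKM in Swarna EP and 4756 FPKM in Pokkali EP. It shares an assembled span (Chr10:21327674-21337365) with LOC_Os10g39880, also listed at 0 in Swarna NP against 110 FPKM in Pokkali NP. In Pokkali NP, 3 loci of a shared span on chromosome 8 were listed at 0 though they had 107, 50.5 and 21.0 FPKM in Pokkali EP, the first of them LOC_Os08g15270 with 74.1 FPKM in Swarna NP. These loci were chosen after their values were seen, and whether their 0 is an absence of RNA was not tested.

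A level of at least 1 FPKM in both Swarna groups with less than 0.1 FPKM in both Pokkali groups was found for 145 genes. The reverse was found for 40 genes, 11 of which lie on chromosome 12, where 1070 of the 19126 genes compared lie. Of the 145 genes, 12 lie on chromosome 12 and 20 on chromosome 11, the most on any chromosome. These chromosomes were picked after their counts were seen. Reads of both cultivars were aligned to a single genome. For genes near 0 in a cultivar, a difference in sequence and a difference in RNA therefore cannot be told apart. Among the list genes the first set holds the FAR1 locus LOC_Os03g06860, with 4.79 FPKM in Swarna NP and 0.013 FPKM in Pokkali NP, and LOC_Os06g49880, annotated as an orphan family member, with 11.3 and 0.036 FPKM.

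By chromosome, the share of genes at least 2-fold higher in Swarna NP lay between 18.0% (chromosome 9) and 22.1% (chromosome 1), and the share higher in Pokkali NP lay between 18.8% (chromosome 1) and 24.2% (chromosome 12). Neighbouring loci were more often on the same side than loci in general. The next locus along the chromosome, in another assembled span, was also higher in Swarna NP for 25.4% of the genes higher in Swarna NP, against 20.5% of all next loci. For genes higher in Pokkali NP the shares were 24.5% and 20.3%. The longest run had 9 consecutive compared loci, all higher in Pokkali NP, at Chr12:11218610-11361070, with a median log2 ratio of −2.17 at NP and −0.94 at EP. A run of 8 loci higher in Swarna NP lay at Chr1:28910213-28977354 and ends with *SWEET2b*, which had 7.39 FPKM in Swarna NP and 3.28 FPKM in Pokkali NP. Of the genes past 2-fold, 15.4% lie in an assembled span that holds further loci, against 15.6% of all genes compared. Those named above include *OsARF19*, *OsIAA6*, *OsRR19*, *OsRR9*, *OsRR10*, *CESA2* and LOC_Os01g45470, each in a span of 2 loci. Part of their reads may belong to a neighbour.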

How the data were processed

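Peduncle total RNA was sequenced from stranded TruSeq libraries. The authors filtered the reads, aligned those of both cultivars to a single genome, that of the Rice Genome Annotation Project version 7, with HISAT2 2.1.0, assembled transcripts with StringTie 1.3.3b and Cuffmerge, and quantified them with Cufflinks and Cuffdiff. The deposited unit is FPKM, 1 value per assembled gene and group, with the 3 libraries combined. Strand options are given as RF for alignment and fr for Cuffdiff, so overlapping genes on opposite strands are uncertain.

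The members and gene lists were chosen with earlier results of these data known. Of 73781 rows, 9703 name no locus and 1407 name several, and these were left out. Ratios were taken on log2(FPKM + 0.5) without further scaling, and no test was possible on single group values. The code was tested on simulated data without noise, which checks the calculation alone and cannot show the error of the group values. Genes named are the 10 largest differences with at least 10 FPKM (unnamed loci limited to 2 in each direction), up to 5 per sublist in each direction with at least 2 FPKM, up to 2 per large transcription factor family, genes the study discusses, and the 5 highest of each group. Lists by gene description and markers of other tissues were not used, since the reference carries no identifiers of this annotation. Alternatives covered the constant (0.1, 1), the filter, the rows of a locus, the scaling and the fold minimum. Python 3.11.15, numpy 2.4.6, pandas 2.3.3 and matplotlib 3.10.9 were used.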

Additional observations from a re-analysis of the deposited data

Results flagged for a closer look

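The cultivar difference had opposite directions at the stages for 144 genes that were at least 2-fold higher in Swarna at NP and in Pokkali at EP, and for 67 genes with the reverse. Named examples are *INV3/VIN2*, with log2 ratios of 2.36 at NP and −1.04 at EP, and *OsNLA1*, with 4.02 and −1.02. In the other direction *OsIAA9* had log2 ratios of −1.71 at NP and 1.06 at EP, and *OsIAA20* had −2.12 and 1.11. They are given here because the cultivars' order at NP is the reverse of that at EP, and with 1 value per group the difference between the stages was not tested. In each of these 4 examples the EP ratio lies close to the 2-fold limit.

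Rows outside the comparison also carry signal. Of the assembled rows with no locus name, 1492 had at least 1 FPKM in Swarna NP or Pokkali NP, 36.2% of them at least 2-fold higher in Swarna NP and 23.4% in Pokkali NP, with a highest value of 18182 FPKM in Swarna NP and 9714 FPKM in Pokkali NP. Of the rows that join several loci, 1147 reached 1 FPKM, 24.5% being higher in Swarna NP and 22.2% in Pokkali NP.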

How the results depend on the processing

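No paired analysis was possible because the columns hold 1 value per group and carry no replicate number, and for the same reason no library could be left out. The counts at 2-fold were 2455 higher in Swarna NP and 2075 in Pokkali NP when a level of 10 FPKM was required in any group, 2571 in Swarna NP with loci of a single row, and 1282 and 1404 at a minimum of 4-fold. Genes higher in Swarna at NP and EP numbered 1202 with a constant of 0.1 and 491 with 1. Opposite genes numbered 230 (higher in Swarna at NP) and 173 (higher in Pokkali at NP) with 0.1, 38 of the second kind with 1, and 55 and 191 with the columns divided by their sums. With loci of a single row, fewer list genes are left, and the counts higher in Swarna NP and Pokkali NP were 9 and 5 for anther and pollen, 11 and 6 for carbohydrate and 29 and 15 for hormone genes, 7 CESA and CSL genes and 0 lignin genes were higher in Pokkali NP, and 149 transcription factors in Swarna NP. With the minimum of 10 FPKM, 72 transcription factors were higher in Pokkali NP. Dividing by the sums left 9 anther and pollen genes higher in Swarna NP. The CESA and CSL genes higher in Swarna NP numbered 2 with a constant of 0.1 or with summed rows, and 0 with a constant of 1, the minimum of 10 FPKM or the sums. Under the other alternatives these counts stayed within 1.5 times. Of 170 named genes, 158 kept their side of 2-fold under all 5 alternatives tried on them and none was called in the other direction, so the others crossed the 2-fold limit under at least 1 alternative. Of 660 counts for carbohydrate and hormone sublists and some transcription factor families under the alternatives, 608 stayed within 1.5 times. The reads behind each FPKM are not in the table, which limits what can be said of low values.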
